A study of Homo sapiens with 4 samples.

Results

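The DUSP, Sprouty and SPRED genes studied here encode inhibitors that act back on MAP kinase signaling. The set holds 10 genes taken by name (DUSP1, DUSP4, DUSP5, DUSP6, DUSP10, SPRY1, SPRY2, SPRY4, SPRED1 and SPRED2) out of 19551 genes tested, and every array probe whose transcript belongs to one of them was read, 11 probes in all. RNA came from Ca9-22 cells, an established human line of gingival squamous cell carcinoma. The 2 control cultures were negative control cells and the 2 KPNA4 knockdown cultures were silenced for KPNA4, which encodes an importin alpha that carries proteins with a nuclear localization signal into the nucleus. All 4 cultures carried a silencing reagent and were harvested 3 days after transfection by their labels, which call the reagent siRNA, whereas the methods and legends of the study speak of shRNA. Each culture was hybridized with 1 dye to 1 Agilent whole human genome array, and all 4 arrays lay on 1 slide.

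Growth factor receptors signal through Ras, RAF, MEK and ERK, and active ERK turns on genes whose products switch the pathway off again. Dual-specificity phosphatases (DUSPs) remove the activating phosphates of ERK, p38 or JNK, Sprouty proteins dampen signaling from receptor tyrosine kinases, and SPRED proteins bring the Ras GTPase-activating protein neurofibromin to the membrane. In squamous epithelium this pathway is fed mainly through the EGF receptor family, and the mRNA levels of the inhibitors are often read as a sign of recent ERK activity.

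Signal is given as the log2 of the array's processed intensity relative to the 75th percentile of that array, so that 0 stands for the 75th percentile and a difference of 1 for 2-fold. Levels of different genes are read by different probes and are not compared with each other. Changes are KPNA4 knockdown minus control with the standard error (SE) from limma, and a change was called at an adjusted p under 0.05 over all genes. KPNA4 itself had log2 values of 4.02 and 4.03 in the control cultures and 2.36 and 2.05 after knockdown, a log2 fold change of -1.82 (SE 0.12, limma adjusted p = 0.00183). All 7 squamous epithelial markers read were well above background on every array, including KRT5, KRT14 and TP63. Their levels differed between the groups. KRT6A was higher after knockdown by 6.94, KRT14 by 1.39, KRT17 by 1.38, CDH1 by 1.16 and KRT5 by 1.00. EPCAM was lower, at -0.51, and TP63, at -0.08, was not called. Of the defining markers of other cell types, COL3A1 (fibroblast) and PECAM1 (endothelium) were well above background on none. Markers of other types moved with the groups too. With 3 or 4 of 5 fibroblast markers well above background per array, their summed level on the log2 scale was -3.88 to -3.84 on the control arrays and -2.73 to -2.58 on the knockdown arrays. With 2 or 3 of 4 leukocyte markers it was 2.05 to 2.07 and 2.55 to 2.63, and with 2 of 3 endothelial markers -3.52 to -3.42 and -4.01 to -3.93. These sums follow their brightest genes and not each list as a whole. COL1A1 changed by 1.62 and CD14 by 0.54, while CD3E was at -1.48 and PTPRC at -0.55 (limma adjusted p = 0.00129, 0.00590, 0.00401 and 0.0339). CD3E was well above background on both control arrays but only 1 knockdown array. LUM was well above background on both control arrays and neither knockdown array. Set against the weakest signal that counted as detected there, LUM was at least 1.49-fold lower (limma adjusted p = 4.84e-04). The part of these marker differences in the results was not tested. The RNA was bulk RNA, in which fewer cells that express a gene and less RNA per cell cannot be told apart.

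After KPNA4 knockdown the inhibitor genes moved in opposite directions. DUSP10, DUSP5 and SPRED1 rose, DUSP4, SPRY2 and DUSP1 fell, and DUSP6, SPRY1, SPRY4 and SPRED2 were not called. The 3 that rose are read against 20.3% of all genes tested called higher, and the 3 that fell against 29.5% called lower. In 7 of the 10 genes the knockdown values lay both above or both below the control values, which was so for 79.9% of all genes measured on the 4 arrays. The median log2 fold change of the 10 genes was 0.12 and their mean 0.11, beside a median of -0.10 over all genes. All 10 genes were well above background on all 4 arrays, and none of their spots carried an outlier flag. Where nothing else is said below, a direction was kept when each array was centered on its median, quantile normalized or left unscaled.

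**Figure D1:**
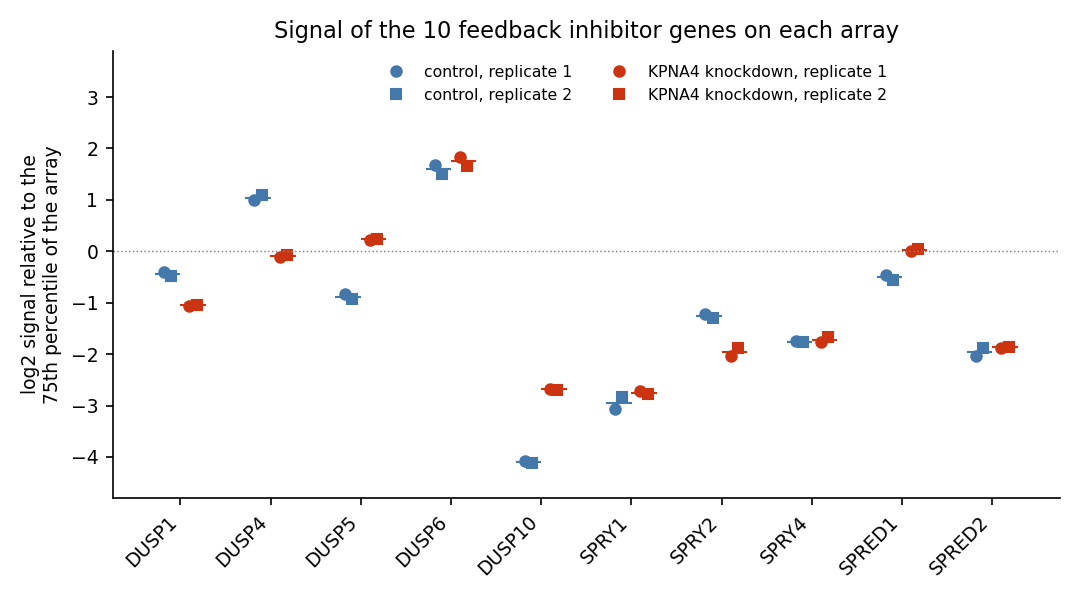
Signal of each of the 10 inhibitor genes on the 4 arrays (vertical axis, log2 relative to the 75th percentile of the array), with control cultures in blue, KPNA4 knockdown cultures in red, replicate 1 as circles, replicate 2 as squares and group means as short lines. The groups are apart in DUSP1, DUSP4, DUSP5, DUSP10, SPRY1, SPRY2 and SPRED1 and overlap in DUSP6, SPRY4 and SPRED2; heights of different genes are not comparable.

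The promoters on record for called members are shown. The inhibitors are transcribed in response to the pathway, and a factor that responds to it could bind in the bases before their start sites. RefSeq promoters (build GRCh38.p14) were held for 8 of the 10 genes, with 13 start sites, and the 250 bases before each start were searched on both strands for 5 motifs: the cyclic AMP response element TGACGTCA, the AP-1 site TGANTCA, the ETS site CCGGAAGT, the SRF CArG box and the kB site. No listed motif contains another. DUSP4 and DUSP5, which were both called, had no promoter on record and were not searched. The first start site of DUSP1 (chr5:172771196-172771445, minus strand), DUSP10 (chr1:221742090-221742339, minus strand), SPRY2 (chr13:80341127-80341376, minus strand) and SPRED1 (chr15:38252586-38252835, plus strand) is given, 5′ to 3′ toward the start, with any motif in capitals.
DUSP1: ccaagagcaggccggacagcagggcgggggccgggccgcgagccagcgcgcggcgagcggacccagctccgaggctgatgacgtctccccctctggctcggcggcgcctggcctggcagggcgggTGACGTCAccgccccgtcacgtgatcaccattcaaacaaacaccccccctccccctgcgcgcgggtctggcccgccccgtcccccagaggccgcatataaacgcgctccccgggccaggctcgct
DUSP10: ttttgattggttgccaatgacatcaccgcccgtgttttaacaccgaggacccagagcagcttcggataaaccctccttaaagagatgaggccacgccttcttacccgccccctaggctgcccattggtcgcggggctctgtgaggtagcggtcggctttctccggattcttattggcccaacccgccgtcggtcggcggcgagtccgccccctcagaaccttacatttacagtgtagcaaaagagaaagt
SPRY2: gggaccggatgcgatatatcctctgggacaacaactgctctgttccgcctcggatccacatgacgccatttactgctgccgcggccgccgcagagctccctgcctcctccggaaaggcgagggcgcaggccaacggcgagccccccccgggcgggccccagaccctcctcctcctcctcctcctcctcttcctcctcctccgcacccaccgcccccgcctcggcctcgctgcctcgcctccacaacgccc
SPRED1: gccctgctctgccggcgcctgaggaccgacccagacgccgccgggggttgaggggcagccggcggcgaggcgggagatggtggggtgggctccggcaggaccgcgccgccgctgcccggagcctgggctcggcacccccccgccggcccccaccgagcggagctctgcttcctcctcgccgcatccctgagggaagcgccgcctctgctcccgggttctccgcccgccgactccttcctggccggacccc
The single match over all 13 windows was a cyclic AMP response element in DUSP1, from base -125 to base -118 before the start. Of 35116 promoters searched in the same way, 1.65% held the cyclic AMP response element, 6.57% the AP-1 site, 3.42% the ETS site, 1.16% the CArG box and 9.96% the kB site. A match of letters is a description of the window and not a bound site. The share of G and C in these windows was 74.4% in DUSP1, which fell, 56.4% in DUSP10, which rose, 70.4% in SPRY2, which fell, and 78.4% in SPRED1, which rose.

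The inducible nuclear phosphatases DUSP1, DUSP4 and DUSP5 did not move together. DUSP1 (MKP-1), an immediate early gene whose product acts on p38, JNK and ERK, had log2 values of -0.41 and -0.49 in the control cultures and -1.06 and -1.04 after knockdown. Both knockdown arrays lay below both control arrays, and DUSP1 fell by 0.60 on the log2 scale (SE 0.06, limma adjusted p = 0.00451), or 1.52-fold. The array carries the DUSP1 probe 10 times, and the coefficient of variation of these spots was between 2.01% and 4.44% per array. The highest spot on the knockdown arrays, at -0.97, lay below the lowest on the control arrays, at -0.55. Repeat spots measure the precision of the array and not the spread between cultures. Without scaling the processed signal of DUSP1 was 1103 and 984 in the control cultures and 932 and 1016 after knockdown, so the groups overlapped, and the change was -0.10 (limma adjusted p = 0.489). The fall of DUSP1 is therefore a fall relative to the rest of each array.

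**Figure D2:**
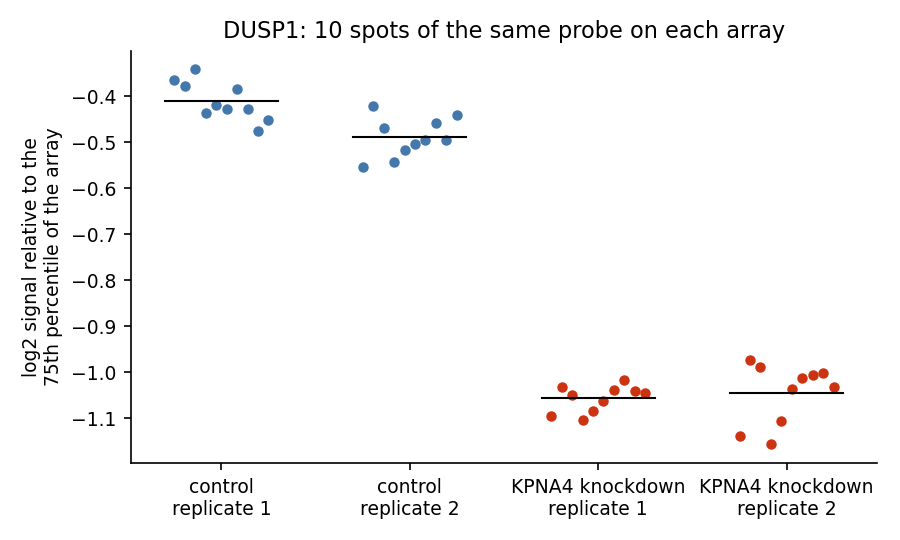
The 10 spots of the DUSP1 probe on each of the 4 arrays (vertical axis, log2 signal relative to the 75th percentile of the array; the axis does not start at 0), with control arrays in blue, KPNA4 knockdown arrays in red and the mean of the spots as a line. All knockdown spots lie at or below -0.97 and all control spots at or above -0.55.

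DUSP4 (MKP-2), a nuclear phosphatase of ERK, JNK and p38, fell the most of the 10 genes. Its log2 values were 0.99 and 1.10 in the control cultures and -0.10 and -0.08 after knockdown. Each knockdown array was over 1 log2 unit below each control array, and the log2 fold change was -1.14 (SE 0.07, limma adjusted p = 0.00157), a fall of 2.20-fold. Without scaling the fall was smaller, -0.63, and still called (limma adjusted p = 0.00153).

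DUSP5, a nuclear phosphatase that acts on ERK and holds it in the nucleus, moved the opposite way. Its log2 values were -0.83 and -0.93 in the control cultures and 0.22 and 0.25 after knockdown. The knockdown arrays were both far above the control arrays, and DUSP5 rose by 1.11 (SE 0.07, limma adjusted p = 0.00153), or 2.17-fold. Within an array the difference between DUSP4 and DUSP5 does not depend on scaling the array by a constant. Set to 0 at its control mean, DUSP4 minus DUSP5 was -0.11 and 0.11 in the control cultures and -2.25 and -2.25 after knockdown. DUSP4 and DUSP5 thus changed unequally on both knockdown arrays under any such scaling. The member pairs given here and below each set a gene called lower against one called higher, so their gap adds no support to those calls. In 40 of all 45 member pairs both knockdown values of the difference lay on 1 side of both control values. These pairs reuse the same genes, and the share over pairs of all genes was not computed. The count is therefore not read as a trait of the members.

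DUSP6 (MKP-3), the cytoplasmic phosphatase specific for ERK and a common readout of ERK activity, was not called. Its log2 values were 1.68 and 1.51 in the control cultures and 1.83 and 1.66 after knockdown. The groups overlapped, and the log2 fold change was 0.15 (SE 0.10, limma adjusted p = 0.260) with a 95% confidence interval from -0.12 to 0.43. Without scaling it was 0.66 (limma adjusted p = 0.00208).

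DUSP10 (MKP-5), which acts on p38 and JNK rather than on ERK, had the largest rise of the 10 genes. Its log2 values were -4.09 and -4.11 in the control cultures and -2.67 and -2.70 after knockdown. It was dim in the control cultures but well above background there, with values that lay close together in each group, and it rose by 1.41 (SE 0.06, limma adjusted p = 7.25e-04), or 2.67-fold. Within an array DUSP1 minus DUSP10, set to 0 at its control mean, was 0.03 and -0.03 in the control cultures and -2.03 and -2.00 after knockdown.

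**Figure D3:**
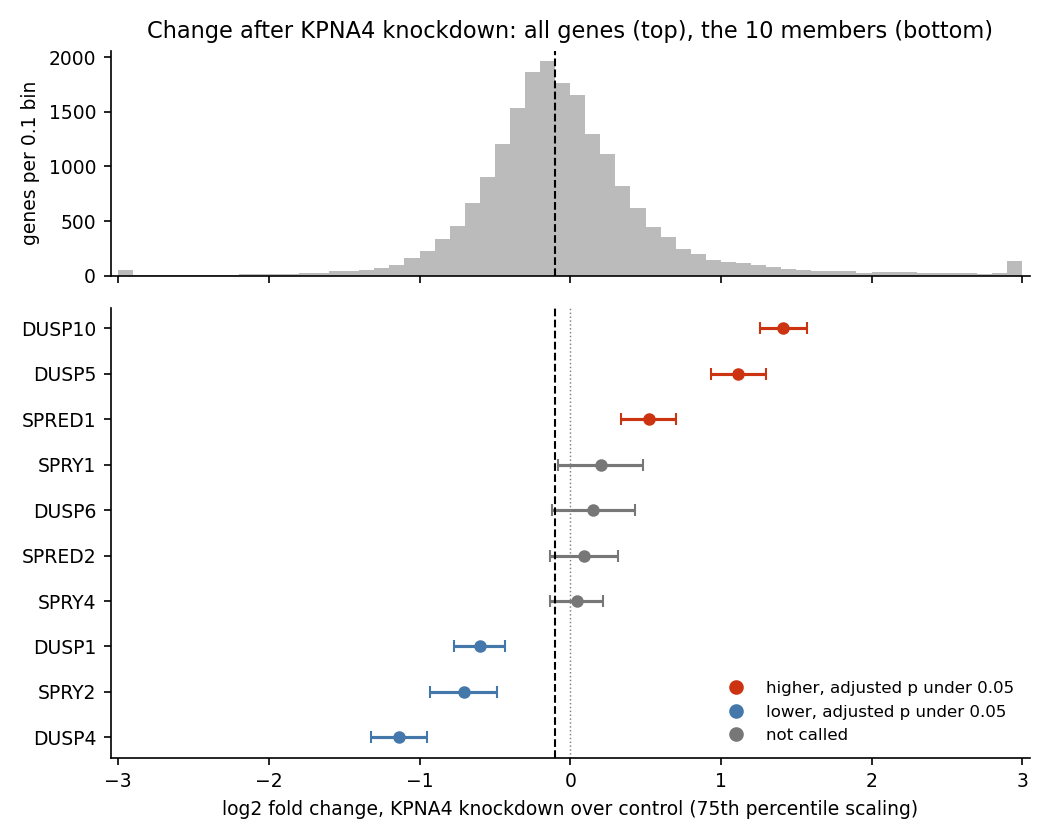
Log2 fold change of KPNA4 knockdown over control (horizontal axis) as a histogram of all 19551 genes tested (top, genes per bin of 0.1, with genes beyond 3 in either direction in the end bins) and for each of the 10 members with its 95% confidence interval from limma (bottom). The dashed line is the median of all genes, -0.10; DUSP10, DUSP5 and SPRED1 lie above it and DUSP1, SPRY2 and DUSP4 below it, while the intervals of DUSP6, SPRY1, SPRY4 and SPRED2 include 0.

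Of the 3 Sprouty genes only SPRY2 was called. SPRY2, which restrains Ras activation downstream of receptor tyrosine kinases, had log2 values of -1.22 and -1.30 in the control cultures and -2.05 and -1.89 after knockdown. Both knockdown arrays were lower than both control arrays, and SPRY2 fell by 0.71 (SE 0.08, limma adjusted p = 0.00570), or 1.63-fold. Its unscaled signal was 628 and 562 in the control cultures and 470 and 565 after knockdown, which overlapped, and without scaling the change was -0.21 (limma adjusted p = 0.199).

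SPRY1, another receptor tyrosine kinase antagonist, had log2 values of -3.08 and -2.83 in the control cultures and -2.73 and -2.78 after knockdown. The knockdown arrays lay just above control replicate 2, and the log2 fold change of 0.20 was not called (SE 0.10, limma adjusted p = 0.173, 95% confidence interval -0.08 to 0.48). Without control replicate 2 it was 0.32 and called (limma adjusted p = 0.0441), and without scaling it was 0.70 (limma adjusted p = 9.56e-04).

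SPRY4 was read by 2 probes. Its brighter probe had log2 values of -1.75 and -1.77 in the control cultures and -1.76 and -1.67 after knockdown, and the dimmer one -4.97 and -5.04 in the control cultures and -4.97 and -5.31 after knockdown. On neither probe were the groups apart. The log2 fold change of the brighter probe was 0.04 (SE 0.06, limma adjusted p = 0.604, 95% confidence interval -0.13 to 0.22) and that of the dimmer, in a fit over all probes, -0.13 (SE 0.13, limma adjusted p = 0.447). SPRY4 has no settled direction, since its change was -0.045 over the mean of its probes and 0.54 and called without scaling (limma adjusted p = 0.00455).

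The SPRED genes were SPRED1, which rose, and SPRED2, which was not called. SPRED1, whose loss causes the Ras pathway disorder Legius syndrome, had log2 values of -0.46 and -0.55 in the control cultures and 0.00 and 0.04 after knockdown. Both knockdown arrays were above both control arrays, and SPRED1 rose by 0.52 (SE 0.07, limma adjusted p = 0.00698), or 1.43-fold. Without knockdown replicate 2 the rise was 0.50 and just missed the threshold (limma adjusted p = 0.0503). Within an array SPRY2 minus SPRED1, set to 0 at its control mean, was -0.01 and 0.01 in the control cultures and -1.28 and -1.17 after knockdown.

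SPRED2, the close relative of SPRED1, had log2 values of -2.05 and -1.87 in the control cultures and -1.88 and -1.85 after knockdown. Knockdown replicate 1 lay between the control arrays, and the log2 fold change was 0.09 (SE 0.08, limma adjusted p = 0.389, 95% confidence interval -0.13 to 0.32). Without scaling it was 0.59 (limma adjusted p = 0.00226). Whether SPRED1 and SPRED2 differ in their response was not tested.

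The unscaled arrays differed in brightness, with a 75th percentile signal of 1466 and 1381 in the control cultures and 1938 and 2096 after knockdown. Without scaling the median log2 fold change of all genes was 0.40, and 11257 of all 19551 genes tested were called higher and 1047 lower. In that setting 7 of the inhibitor genes were called higher and 1 (DUSP4) lower, in place of 3 and 3. With quantile normalization or centering on the median they were again 3 and 3. Of all 19551 genes, 4357 were called higher and 4898 lower with quantile normalization, and 3704 and 6248 with centering. Relative to the median of all genes, DUSP10 was higher by 1.52, DUSP5 by 1.22 and SPRED1 by 0.62, and the values were -1.03 for DUSP4, -0.61 for SPRY2 and -0.50 for DUSP1. These differences from the median are the same with and without scaling by construction, since a constant shifts all genes of an array equally. Under quantile normalization they were 1.44 for DUSP10, 1.17 for DUSP5, 0.57 for SPRED1, -1.07 for DUSP4, -0.67 for SPRY2 and -0.54 for DUSP1. With the background modeled by normexp in place of the array's own correction, no gene of the whole array was called, and the 6 called inhibitor genes had the sign given above, with DUSP6 at 0.013 (limma adjusted p = 0.979).

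**Figure D4:**
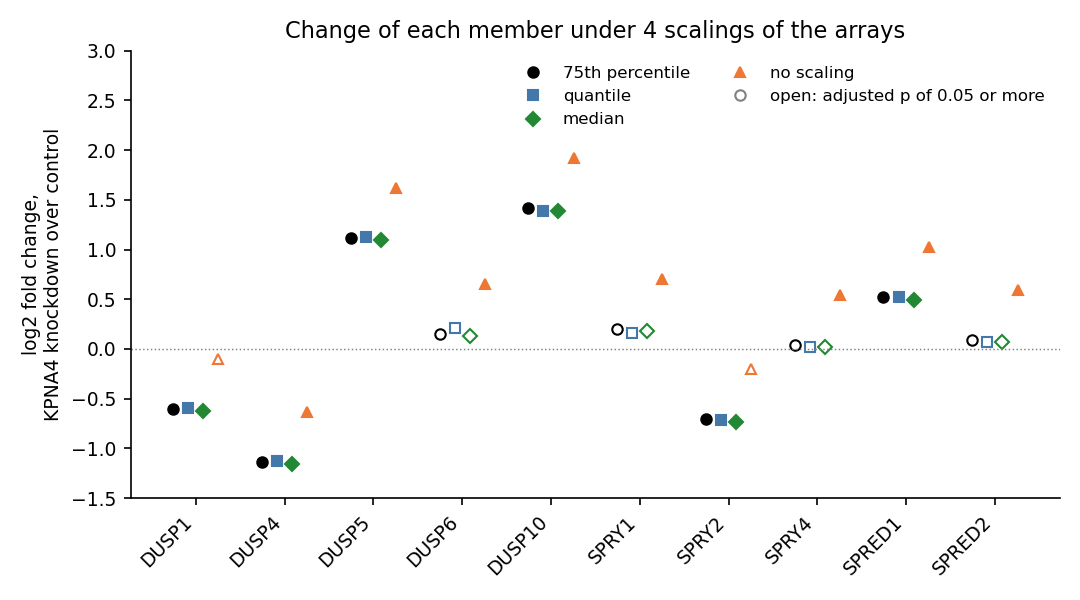
Log2 fold change of each of the 10 inhibitor genes (vertical axis, KPNA4 knockdown over control) with the arrays scaled to the 75th percentile (black), quantile normalized (blue), centered on the median (green) or left unscaled (orange), filled where the limma adjusted p was under 0.05 and open where it was not. The unscaled values lie above the others by about the same amount in every gene, and DUSP1 and SPRY2 are open only there.

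Other genes of the pathway were read from lists written by hand. Of 19 other MAP kinase phosphatases and paralogs of the members, 16 were tested. Of these 4 were higher and 5 lower, beside 20.3% and 29.5% of all genes, with a median log2 fold change of -0.12. DUSP9 (MKP-4), a cytoplasmic ERK phosphatase close to DUSP6, rose the most. Its log2 values were -2.86 and -2.62 in the control cultures and -0.80 and -0.81 after knockdown, a rise of 1.94 (SE 0.10, limma adjusted p = 0.00120). The small atypical phosphatases DUSP23 and DUSP22 rose by 1.03 and 0.63 (limma adjusted p = 0.00184 and 0.00410). DUSP8 and DUSP16, which act on JNK and p38, had log2 fold changes of -0.73 and -0.70, and DUSP7, an ERK phosphatase, of -0.64 (limma adjusted p = 0.00556, 0.00825 and 0.00644). Without scaling these falls were -0.23, -0.20 and -0.14 and none was called. Over the mean of its probes the fall of DUSP8 was smaller, -0.36, and still called (limma adjusted p = 0.0198).

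Of 26 other negative regulators, 23 were tested, with 5 higher and 9 lower, beside 20.3% and 29.5% of all genes. Their median was -0.02. LRIG1, a membrane protein that lowers EGF receptor levels, rose by 1.72, and the Ras GTPase-activating proteins DAB2IP and RASAL1 rose by 0.96 and 0.60 (limma adjusted p = 8.33e-04, 0.00455 and 0.00773). Over the mean of its probes the rise of DAB2IP was smaller, 0.58, and still called (limma adjusted p = 0.0106). Other Ras GTPase-activating proteins fell, RASA3 with a log2 fold change of -1.17 and RASAL3 with -1.01 (limma adjusted p = 0.00373 and 0.00480). CBL, a ubiquitin ligase of receptor tyrosine kinases, had -0.50 (limma adjusted p = 0.0253), was at -0.0019 without scaling, and lost its call without knockdown replicate 1 or 2 (limma adjusted p = 0.0867 and 0.0985).

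Of 24 genes from Ras to ERK, 23 were tested, with 7 higher and 3 lower, beside 20.3% and 29.5% of all genes. Their median was 0.17. The small GTPase MRAS rose by 1.07, the exchange factor SOS2 rose by 0.51 (not called without knockdown replicate 2, limma adjusted p = 0.0503), and the scaffold KSR1, below the detection limit on both control arrays, was at least 1.18-fold higher (limma adjusted p = 0.00308, 0.00667 and 0.00652). This limit divides the mean of the bright group by the weakest signal that counted as detected on the dim group's arrays (or by the probe's own signal, if higher). From the signal without spatial detrending, floored at the weakest detected signal, the change of KSR1 was 0.19 on the log2 scale, under its limit, and was not called (limma adjusted p = 0.143). NRAS and the phosphatase PTPN11 were lower by the 75th percentile, with -0.40 and -0.32 (limma adjusted p = 0.00881 and 0.0470), but were at 0.11 and 0.18 without scaling. NRAS lost its call without knockdown replicate 1 or 2 (limma adjusted p = 0.0597 and 0.0690), and PTPN11 with quantile normalization (0.146), with the replicate number as a block (0.0863) and without control replicate 1 (0.0971), knockdown replicate 1 (0.187) or knockdown replicate 2 (0.121). Of 20 genes of the p38 and JNK branch, on which DUSP10 acts, 19 were tested, with 2 higher and 4 lower. These counts are read beside 20.3% and 29.5% of all genes, and the median was -0.02. The higher genes were the JNK gene MAPK10, with 1.35, and the p38 activator MAP2K6, with 1.09 (limma adjusted p = 8.40e-04 and 0.00120). The JNK activator MAP2K7 was at -0.81, the p38 activator MAP2K3 at -0.46 and the scaffold MAPK8IP3 at -0.27 (limma adjusted p = 0.00252, 0.00684 and 0.0371). The last 2 of these were above 0 without scaling, at 0.040 and 0.24. Over the mean of its probes the fall of MAP2K3 was smaller, -0.27, and still called (limma adjusted p = 0.0316). MAPK8IP3 lost its call with quantile normalization (limma adjusted p = 0.0847), with the replicate number as a block (0.0714) and without control replicate 1 (0.0764), knockdown replicate 1 (0.147) or knockdown replicate 2 (0.176), and MAP2K3 without knockdown replicate 1 (0.0519).

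Of 30 transcripts that ERK is known to induce, 29 were tested, with 7 higher and 8 lower, beside 20.3% and 29.5% of all genes, and a median of 0.12. EREG, a ligand of the EGF receptor, rose by 2.34 (limma adjusted p = 8.36e-04). The transcription factor EGR3 and the receptor EPHA4 were below this limit in both control cultures and were at least 4.11-fold and 1.55-fold higher (limma adjusted p = 0.00163 and 0.00171). From the signal without spatial detrending EPHA4 was at 0.37 on the log2 scale, under its limit but called (limma adjusted p = 0.0205). SPHK1, which makes sphingosine phosphate, had a log2 fold change of -1.40, the AP-1 subunit FOSL1 of -1.36 and the EGF receptor ligand HBEGF of -1.36 (limma adjusted p = 7.41e-04, 0.00228 and 0.00184).

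**Figure D5:**
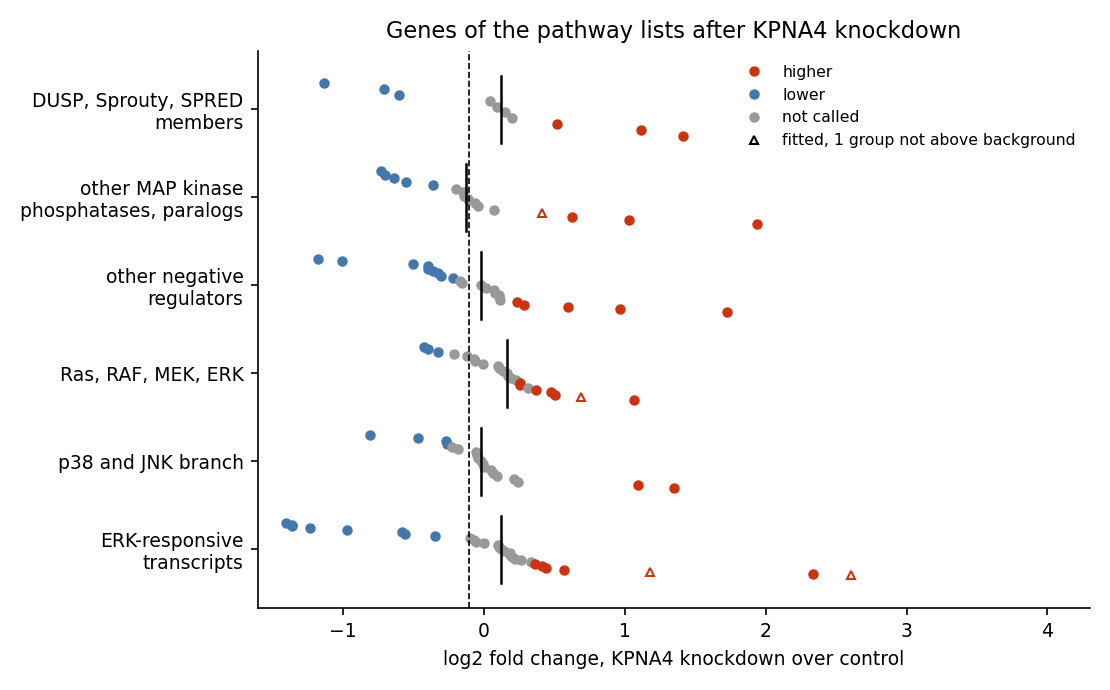
Log2 fold change (horizontal axis) of every tested gene of the members and of 5 pathway lists, with genes called higher in red, called lower in blue and not called in gray, and with open triangles for fitted values of genes not well above background on either array of a group. Short lines mark the median of each list and the dashed line the median of all genes, -0.10; the list medians lie between -0.12 and 0.17 and every list holds called genes on both sides.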

How the data were processed

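Gene expression was measured on 4 arrays (2 control and 2 KPNA4 knockdown cultures), grouped by the sample labels. The authors deposited the output of Agilent Feature Extraction 11.0.1.1, whose processed intensity is background-subtracted and spatially detrended. The table the authors also deposited holds the processed signal as a ratio to about the 75th percentile of each array, for 24209 of 34127 probes, and served as an alternative.

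Control spots and flagged spots (333 to 355 of 43118 gene spots per array) were left out, log2 values of a probe's spots were averaged, and each array was scaled to its own 75th percentile. Between 70.2% and 71.0% of probes were well above background, no gene spot was saturated, and the number of arrays limits the precision. Probes had to be well above background in both cultures of 1 group or more, and the brightest such probe stood for its gene, which left 19551 genes. RefSeq (GRCh38.p14) accessions named 25771 probes.

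The comparison used limma (version 3.58.1, R 4.3.3) with Benjamini-Hochberg adjustment over all genes, and the procedure was tested on simulated data. There 37 of 50 genes changed by 1 on the log2 scale were recovered, and 0 of 50 changed by 0.5. The simulation held far fewer changed genes than were called here, so it does not measure recovery in these data. Its pass criteria were set after its results were seen. Replicates are biological by the series' text, but p-values measure only the spread between these 4 arrays. The alternatives were other scalings, background corrections, filters, probe rules, variance models and thresholds, the deposited table, the replicate number as a block and each array left out.

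The members and lists were chosen with earlier results of these data known. Named are KPNA4, all members, paralogs called with at least 1.5-fold, and of each other list the 3 largest called changes in each direction among genes whose groups do not overlap, of which 1 gene is not reported here. The comparison of member proteins that was planned was not run, as protein sequences were not used here.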

Additional observations from a re-analysis of the deposited data

How the results depend on the processing

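Over the 17 alternatives, the log2 fold change of KPNA4 ranged from -1.97 to -1.32. DUSP4 ranged from -1.19 to -0.63, DUSP5 from 1.02 to 1.62 and DUSP10 from 1.39 to 1.92, and all 3 kept their call except under normexp. Under normexp no gene was called, with KPNA4 at -1.96, DUSP1 at -0.39, DUSP4 at -1.12, DUSP5 at 1.02, DUSP10 at 1.59 and SPRED1 at 0.47 (limma adjusted p = 0.651 each) and SPRY2 at -0.28 (limma adjusted p = 0.679), 0 members and 0 list genes called in either direction, and a median of the members of 0.43. Without scaling, DUSP1 at -0.10 and SPRY2 at -0.21 lost their call, DUSP6 at 0.66, SPRY1 at 0.70, SPRY4 at 0.54 and SPRED2 at 0.59 gained it, 7 members were called higher and 1 lower, 79 list genes were higher and 8 lower in place of 25 and 29, and the median of the members was 0.63. In that setting 11257 of 19551 genes over the whole array were called higher and 1047 lower. The cause of the differences between settings was not tested. With no filter on dim probes 19 list genes were lower, beside 4288 of 27708 genes tested. The mean over probes turned SPRY4 to -0.045.

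With each array left out in turn, SPRY1 ranged from 0.081 to 0.32 (called without control replicate 2), SPRY4 from -0.0016 to 0.087 (below 0 without knockdown replicate 2), SPRED1 from 0.47 to 0.57 (lost without knockdown replicate 2) and the median of the members from 0.066 to 0.15. List genes called lower ranged from 14 to 25 and higher from 14 to 26. Without knockdown replicate 1 they were 15 and 16, and without knockdown replicate 2 they were 14 and 14. Over the whole array, fewer genes were also called in each direction without knockdown replicate 1 or 2 than with all arrays. The smaller list counts are therefore not read as a trait of the lists. A fit that leaves 1 array in a group assumes that it varies like the other group.

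The labels number the replicates 1 and 2 in both groups. The deviations of same-numbered arrays from their group means had a correlation of -0.03 over 19538 genes. This value cannot tell whether same-numbered cultures were handled as a pair, and the labels give only the number. With the replicate block 3 members were lower and 3 higher as before, and DUSP1, for example, was at -0.60 (limma adjusted p = 0.0166). List genes were 22 lower and 20 higher, beside 4639 lower and 3262 higher of all 19551 genes.

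Of the 28 list genes named, NRAS at 0.11, PTPN11 at 0.18, MAP2K3 at 0.040 and MAPK8IP3 at 0.24 reversed without scaling, and DUSP7 at 1.00, DUSP16 at 0.45 and RASAL3 at 0.80 under normexp. The other 25 lost their call under normexp. Calls were also lost by 4 of the 28 without scaling (DUSP7, DUSP8, DUSP16, CBL), 2 with quantile normalization and the same 2 with the replicate block and without control replicate 1 (PTPN11, MAPK8IP3), 3 with no filter on dim probes (CBL, PTPN11, MAPK8IP3), 5 without knockdown replicate 1 (CBL, NRAS, PTPN11, MAP2K3, MAPK8IP3), 5 without knockdown replicate 2 (CBL, NRAS, PTPN11, SOS2, MAPK8IP3) and KSR1 without spatial detrending.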
